A study of Homo sapiens with 4 samples.

Results

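TNFAIP2 (TNF alpha induced protein 2, also called B94, M-Sec or EXOC3L3) is 1 of the 24424 gene symbols counted in this RNA sequencing series, and its counts were read from the row of that symbol in each of the 4 libraries. The gene was chosen by its measured CPM in these same 4 libraries, set against other genes, so its levels and ratios are a description and carry no test. The cells were BEAS-2B, a line of immortalised cells derived from human bronchial epithelium, with a genotype labelled wild type in every library. In the siOCLN+LPS library, cells received siRNA against occludin for 24 h and then LPS, a bacterial cell wall lipid sensed through TLR4, for 2 h. In the library labelled wtOCLN+LPS, here called the library labelled wtOCLN, wild-type occludin was transfected for 24 h before the same 2 h of LPS. The LPS library had LPS for 2 h and the control library no treatment, and the labels of both mention no transfection, not even a mock. Each group had 1 library, so every comparison is between libraries and none has a replicate check.

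TNFAIP2 was first described as a gene switched on by tumour necrosis factor in endothelial cells. Its protein is related to EXOC3 (Sec6), a subunit of the exocyst, the complex that tethers secretory vesicles to the plasma membrane. With the small GTPase RALA and the exocyst it promotes tunnelling nanotubes, thin membrane bridges between cells, and it is a known target of NF-kB. The series was designed around occludin, a tight junction protein, and TNFAIP2 has no role in its labels.

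The RefSeq promoter table for GRCh38.p14 gives 1 start for TNFAIP2, on the plus strand of chromosome 14. The 250 bases before that start, chr14:103123211-103123460, are shown because the gene had among the highest ratios to control of any gene in the 3 LPS libraries. Capitals mark matches to a kappaB pattern (GGG and CC with any 5 bases between them) and to the GC box (GGGCGG), on either strand. The kappaB pattern is loose, and forms with another spacing were not searched for or marked.

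TNFAIP2 promoter: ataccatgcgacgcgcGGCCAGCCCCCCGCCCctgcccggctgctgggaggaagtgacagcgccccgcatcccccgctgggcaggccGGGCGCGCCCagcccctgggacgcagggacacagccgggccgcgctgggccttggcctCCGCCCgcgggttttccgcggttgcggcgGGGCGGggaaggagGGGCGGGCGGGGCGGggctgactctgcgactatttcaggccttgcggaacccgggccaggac

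The stretch was 77.2% G and C, against a median of 58% over 35116 promoter entries of the same length. It held 6 GC boxes, as many or more of which stood in 2.22% of the entries, while 42.6% of entries held at least 1. The loose kappaB pattern matched at 2 places, 234 and 163 bases before the start, the first of them directly followed by a GC box without sharing its bases. Of all entries 54.4% also held it. No letters matched an ISRE (GAAA repeated after any 2 bases, in 3.02% of entries), a GAS element (TTCNNNGAA, in 6.57%) or an AP-1 site (TGANTCA, in 6.57%). GENCODE 29 lists 11 transcripts of TNFAIP2 from 9 starts, of which 2 begin at the start shown, and the next protein-coding one begins 2866 bases further on. The counts are per gene and do not say which start was used.

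Library totals ran from 13867494 to 17500031 counts, so a single count stood for 0.0571 to 0.0721 CPM (counts per 1000000 counts of the library). OCLN, the occludin gene, had 21.0 CPM in siOCLN+LPS, 29.7 CPM in the library labelled wtOCLN, 50.4 CPM in LPS and 55.4 CPM in control. It was thus below LPS in both transfected libraries, which goes against the label of the wtOCLN one, and no direction from that library is read as an effect of added occludin. TNFAIP2 is known to be abundant in myeloid and endothelial cells. Of 10 myeloid markers, 1 (CD68, which other cells also express) reached 1 CPM in any library, and TYROBP and CD163 had 0 counts in all 4. The summed myeloid level was 5.21 CPM in siOCLN+LPS, 8.63 CPM in the library labelled wtOCLN, 18.2 CPM in LPS and 18.6 CPM in control, and CD68 made up most of it in each library (4.98, 7.49, 16.6 and 16.6 CPM in the same order). Of 9 endothelial markers, 0 reached 1 CPM in either transfected library and 2 in LPS and in control, with summed levels of 2.17 and 2.63 CPM in siOCLN+LPS and the library labelled wtOCLN, 3.89 CPM in LPS and 4.34 CPM in control. Of 7 fibroblast markers 2 reached 1 CPM in each library. The summed level of the 7 was 106.5 CPM in siOCLN+LPS, 111.5 CPM in the library labelled wtOCLN, 76.7 CPM in LPS and 70.4 CPM in control. The higher sum lay mainly in PDGFRB, with 49.4 and 55.4 CPM in the transfected libraries, 13.8 CPM in LPS and 12.3 CPM in control. COL1A1 was slightly below LPS, with 56.1 and 55.2 CPM in the transfected libraries, 62.7 CPM in LPS and 57.6 CPM in control. Epithelial markers were present, 8 of 9 at 1 CPM or more in each LPS-treated library and 9 of 9 in control. Their summed level was 2361 and 2469 CPM in siOCLN+LPS and the library labelled wtOCLN, against 1288 CPM in LPS and 1529 CPM in control. KRT8, KRT17 and KRT18 made up most of this sum in each library. Of the 8 markers tested over LPS, 6 were above LPS in each transfected library and 2, EPCAM and KRT5, below it. EPCAM had 1.26 and 1.60 CPM in the transfected libraries against 2.67 CPM in LPS, and KRT5 had 19.1 and 19.9 against 22.4 CPM. The part of the epithelial and fibroblast marker differences in the TNFAIP2 values was not tested.

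TNFAIP2 was a gene of moderate level in untreated cells and among the most abundant transcripts after LPS. It had 63777 counts in siOCLN+LPS, 58240 in the library labelled wtOCLN, 21980 in LPS and 1804 in control. Scaled to the library totals these were 3649 CPM in siOCLN+LPS (95% Poisson interval 3621 to 3678), 3328 CPM in the library labelled wtOCLN (3301 to 3355), 1585 CPM in LPS (1564 to 1606) and 113.5 CPM in control (108.4 to 118.9). The order of the 4 levels was therefore control, LPS, the library labelled wtOCLN and siOCLN+LPS from low to high, and no 2 of the intervals overlap. These intervals cover counting error only, and the spread between cultures is unknown. In RNA from whole cultures, more expressing cells and more RNA per cell cannot be told apart.

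**Figure D1:**
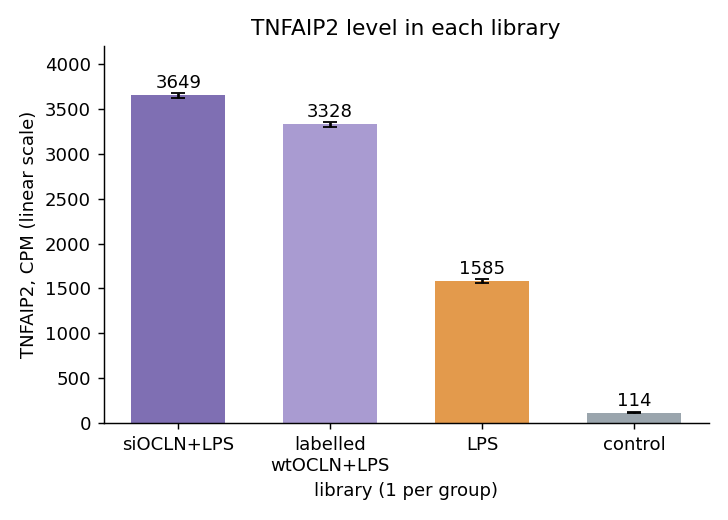
TNFAIP2 in CPM on a linear axis from 0, with 1 bar per library and 95% Poisson intervals that cover counting error only. The transfected LPS libraries stand at 3649 and 3328 CPM, above LPS at 1585 CPM and control at 113.5 CPM.

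TNFAIP2 took 0.365% of all counts in siOCLN+LPS, 0.333% in the library labelled wtOCLN, 0.159% in LPS and 0.0114% in control. Per length of the longest GENCODE 29 transcript (4683 bases), its level was 779 CPM per kilobase in siOCLN+LPS, 711 in the library labelled wtOCLN, 338 in LPS and 24.2 in control. Ranked per kilobase among the 21419 symbols with a known length, small RNAs left out, it stood 25th in siOCLN+LPS, 33rd in the library labelled wtOCLN, 82nd in LPS and 2871st in control.

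The ratio of LPS to control was 13.96-fold (13.3 to 14.7, exact 95% interval on the counts of both libraries), and of the 13551 genes tested 18 others had a ratio as high or higher. Tested genes had at least 1 CPM in 1 or both of the libraries compared. Genes are ranked by their log2 ratios of CPM + 1, which for TNFAIP2 was 3.79, against a median of -0.09 over all tested genes. In all, 1.6% of tested genes were higher in LPS by 2-fold or more and 0.207% lower.

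Both transfected libraries held more TNFAIP2 than the LPS library, which they share as the library under the ratio. As the labels name no mock transfection, transfection itself and a change of occludin cannot be told apart in either ratio. The level was 2.30-fold higher in siOCLN+LPS (2.27 to 2.34) and 2.10-fold higher in the library labelled wtOCLN (2.07 to 2.13). On the log2 scale these were 1.20 and 1.07, while the medians of all tested genes were -0.13 and -0.15. Higher by 2-fold or more were 3.32% of tested genes in siOCLN+LPS, as were 3.32% for the library labelled wtOCLN, and lower were 3.92% and 3.69%. Of the other tested genes, 276 had ratios at or above that of TNFAIP2 in siOCLN+LPS, and 379 for the library labelled wtOCLN. In absolute terms the difference from LPS was 2064 CPM in siOCLN+LPS and 1743 CPM in the library labelled wtOCLN, each larger than the 1471 CPM between LPS and control.

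The direct comparison of the transfected libraries gave a small difference. TNFAIP2 was 1.10-fold higher in siOCLN+LPS than in the library labelled wtOCLN (1.08 to 1.11), a log2 ratio of 0.13 beside a median of 0.02 over all genes, and of the 13109 tested genes 2922 others had a ratio at or above it. Between these libraries 0.0763% of tested genes were higher in siOCLN+LPS by 2-fold or more and 0.29% lower. The interval excludes 1 because the counts are high, and without replicate cultures it does not show that the conditions differ. Against control, TNFAIP2 was 32.1-fold higher in siOCLN+LPS (30.7 to 33.7) and 29.3-fold higher in the library labelled wtOCLN (28.0 to 30.7), where 9 and 10 other genes had ratios as high.

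Genes with a similar number of reads mostly changed little. The mean of TNFAIP2 over the 4 libraries was 2169 CPM, and 48 other genes had means within 2-fold of it, between 1084 and 4338 CPM. These are largely housekeeping transcripts such as the glycolytic enzymes GAPDH and PKM, the elongation factor EEF2, and the cytoskeletal genes VIM and MYH9. A similar count gives similar counting precision and says nothing of a similar level per length. Their log2 ratios of LPS over control had a median of 0.01, and 45 of the 48 lay within 2-fold. The chemokines CXCL8 and CXCL1 were the 2 with higher ratios than TNFAIP2, at 6.02 and 5.34 on the log2 scale. CXCL8, a neutrophil attractant, had 1657 CPM in LPS and 24.5 CPM in control. The next below TNFAIP2 was SDC4, a cell surface heparan sulphate proteoglycan, with 3174 CPM in LPS and 813.4 CPM in control, 3.90-fold higher.

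**Figure D2:**
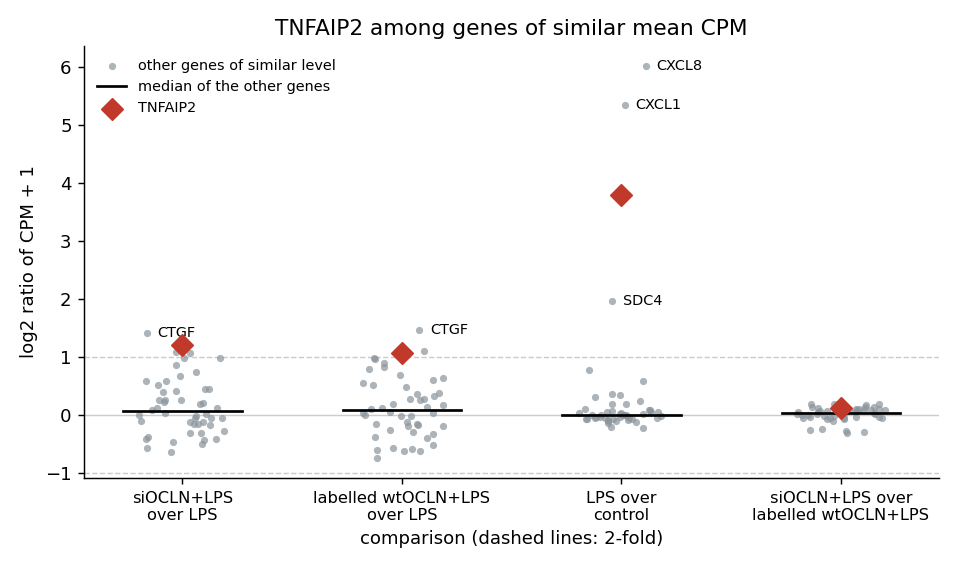
Log2 ratios of CPM + 1 for TNFAIP2 (diamond) and the 48 other genes with a similar mean CPM (dots, spread sideways at random), in 4 comparisons, with the median of the other genes as a bar. TNFAIP2 lies at 1.20 and 1.07 over LPS in the transfected libraries, at 3.79 for LPS over control and at 0.13 between the transfected libraries.

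In siOCLN+LPS against LPS, the same 48 genes had a median log2 ratio of 0.07 and ran from -0.64 to 1.41. CTGF, a secreted target of YAP and TAZ, was the only 1 of them above TNFAIP2, with 1625 CPM in siOCLN+LPS and 611.0 CPM in LPS. ERRFI1, a feedback inhibitor of EGF receptor signalling, and the fatty acid synthase gene FASN came just below at 1.09 and 1.07. In the library labelled wtOCLN the median was 0.08, with CTGF at 1.48 and FASN at 1.11 above TNFAIP2. Between the transfected libraries all 48 lay within 2-fold, and 7 were at or above TNFAIP2.

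Taking genes by their starting level instead, 3863 other genes had between 56.8 and 227.1 CPM in control, within 2-fold of the TNFAIP2 level there. Of these, 1 had a higher ratio of LPS over control, TNFAIP3, at 1242 CPM in LPS and 61.6 CPM in control. Genes higher in LPS by 2-fold or more made up 0.984% of them. In LPS, 96 other genes lay within 2-fold of TNFAIP2, of which 0 had a ratio as high in siOCLN+LPS and 1, FASN, in the library labelled wtOCLN.

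Of the other Sec6-related genes, EXOC3 alone had counts high enough to show a profile. EXOC3 had 90.8 CPM in siOCLN+LPS, 83.4 CPM in the library labelled wtOCLN, 82.1 CPM in LPS and 89.3 CPM in control, a nearly flat profile. EXOC3L1, EXOC3L2 and EXOC3L4 were below 1 CPM throughout, too low to compare, with at most 8, 1 and 11 counts in a library. EXOC3L4, which lies 2 places upstream of TNFAIP2 in the RefSeq gene order, had 11 and 9 counts in siOCLN+LPS and the library labelled wtOCLN, 1 in LPS and 0 in control. These are too few for an order of the libraries to be read. Per kilobase, TNFAIP2 stood at 24.2 CPM and EXOC3 at 15.5 CPM in control, while in siOCLN+LPS TNFAIP2 stood at 779 CPM and EXOC3 at 15.8 CPM.

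The 9 genes of the exocyst, including EXOC3, all lay within 2-fold in every comparison made. Of all tested genes, 1.81% lay outside 2-fold in LPS over control, 7.25% in siOCLN+LPS over LPS, 7.01% in the library labelled wtOCLN over LPS and 0.366% between the transfected libraries. At these shares a count of 0 among 9 says nothing particular to the exocyst. The median log2 ratio of the 9 was -0.13 for LPS over control, 0.00 in siOCLN+LPS over LPS and -0.02 in the library labelled wtOCLN over LPS, beside -0.09, -0.13 and -0.15 for all tested genes. With TMM scaling these list medians were -0.04, 0.15 and 0.14, beside -0.002, 0.01 and 0.01 for all tested genes. For either transfected library over LPS the lowest ratio was that of EXOC5, which had 101.9 CPM in siOCLN+LPS, 102.2 CPM in the library labelled wtOCLN, 156.8 CPM in LPS and 159.3 CPM in control.

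Among 16 tested genes of Ral GTPases, their regulators and nanotube proteins, 0 passed 2-fold in LPS against control. RALA, the GTPase that binds TNFAIP2, had 72.6 CPM in siOCLN+LPS, 76.1 CPM in the library labelled wtOCLN, 77.6 CPM in LPS and 87.2 CPM in control. RALGDS, an exchange factor that activates Ral, was the 1 member past 2-fold over LPS, a share of the list near the 7.25% and 7.01% of all tested genes, with 81.1 CPM in siOCLN+LPS, 72.2 CPM in the library labelled wtOCLN, 35.6 CPM in LPS and 40.2 CPM in control. Under TMM, median ratio and upper quartile scaling the number past 2-fold over LPS was 2. MYO10, a myosin of filopodia, was on the other side at 10.2 and 10.4 CPM in siOCLN+LPS and the library labelled wtOCLN, 20.0 CPM in LPS and 21.8 CPM in control. LST1, another nanotube protein, had at most 2 counts.

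**Figure D3:**
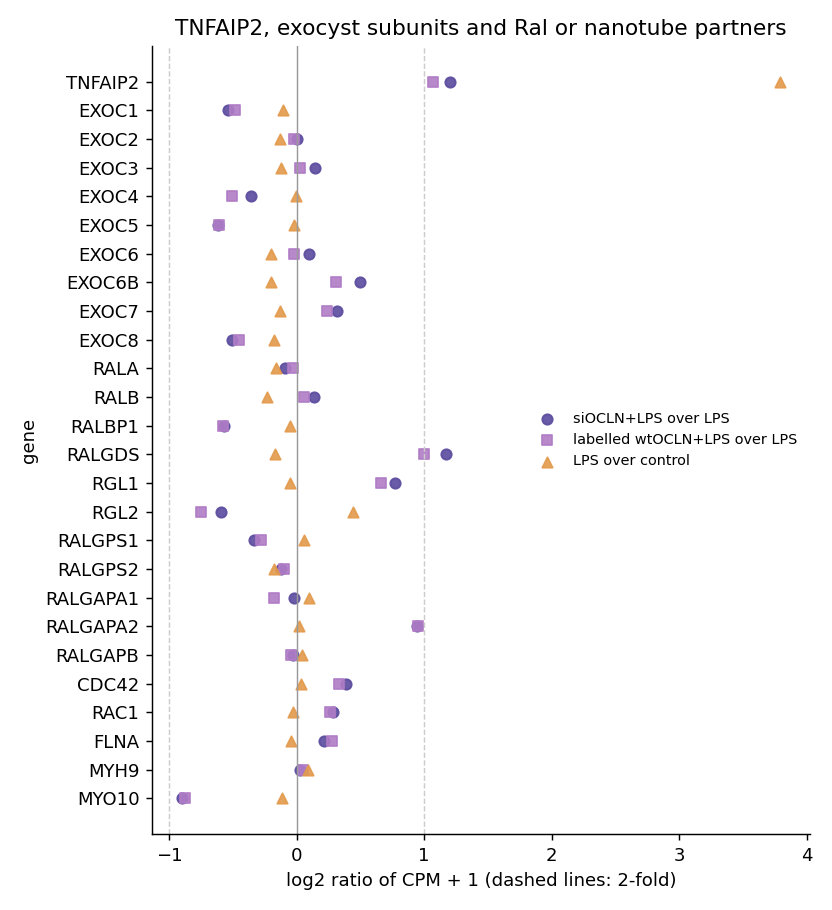
Log2 ratios of CPM + 1 for TNFAIP2, the 9 exocyst genes and 16 Ral or nanotube genes, for siOCLN+LPS over LPS (circles), the library labelled wtOCLN over LPS (squares) and LPS over control (triangles), with dashed lines at 2-fold. TNFAIP2 lies past 2-fold in all 3. The exocyst genes do so in none, where at most 7.25% of all tested genes do.

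Genes that share the name of TNF-induced protein differed in what the transfected libraries held. TNFAIP3 (A20, a deubiquitinase that restrains NF-kB signalling) had 1183 CPM in siOCLN+LPS, 1256 CPM in the library labelled wtOCLN, 1242 CPM in LPS and 61.6 CPM in control, so it was level across the 3 LPS libraries. TNFAIP6, a hyaluronan-binding protein, had 3.43 CPM in siOCLN+LPS, 4.34 CPM in the library labelled wtOCLN, 51.8 CPM in LPS and 2.39 CPM in control. PTX3 (once TNFAIP5), a secreted pattern recognition protein, had 135.6 CPM in siOCLN+LPS, 113.3 CPM in the library labelled wtOCLN, 525.4 CPM in LPS and 7.36 CPM in control. Both were thus raised over control in LPS and well below the LPS level in the transfected libraries. TNFAIP8 stood at 66.0 CPM in siOCLN+LPS, 62.2 CPM in the library labelled wtOCLN, 140.8 CPM in LPS and 31.2 CPM in control. TNFAIP1, TNFAIP8L1 and TNFAIP8L3 lay within 2-fold in each comparison with library totals, and TNFAIP8L2 was below 1 CPM. Of the 7 tested besides TNFAIP2, 4 were past 2-fold higher in LPS over control, beside 1.6% of all genes. In each transfected library over LPS, 0 were higher and 3 (TNFAIP6, PTX3 and TNFAIP8) lower. Of all tested genes 3.32% were higher in either library, so a count of 0 among 7 is near the background, and 3.92% and 3.69% were lower. With TMM scaling 2 of the 7 were lower and, in siOCLN+LPS, 1 (TNFAIP8L3) was higher. TNFAIP2 was past 2-fold higher in all 3 comparisons.

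TNFAIP2 was 1 of 32 genes listed as NF-kB targets, a list chosen with results of these data known. Of the other 31, 28 were past 2-fold higher in LPS over control, beside 1.6% of all tested genes. Their median log2 ratio was 3.45, and 14 of the 31 had a ratio at or above that of TNFAIP2. ICAM1, the leukocyte adhesion ligand, had 1082 CPM in LPS and 139.3 CPM in control. SOD2, the mitochondrial superoxide dismutase, had 1165 CPM in LPS and 106.0 CPM in control.

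Most of these targets differed less from LPS than TNFAIP2 did in the transfected libraries. In siOCLN+LPS over LPS, 5 of the 31 were past 2-fold higher and 2 lower, beside 3.32% and 3.92% of all tested genes, so the count lower is near the background. The median log2 ratio was 0.24, or 0.38 with TMM scaling, beside -0.13 and 0.01 for all tested genes. The monocyte chemokine CCL2 was the 1 above TNFAIP2, with 958.2 CPM in siOCLN+LPS and 175.9 CPM in LPS, 5.45-fold higher (5.22 to 5.69). In the library labelled wtOCLN, 4 were past 2-fold higher and 1 lower, beside 3.32% and 3.69% of all tested genes, so the count lower is again near the background. Those 4, CCL2, IL6, BCL3 and IRF1, were also the 4 with ratios above that of TNFAIP2. BCL3, an atypical IkB protein, had 259.4 CPM in siOCLN+LPS, 263.9 CPM in the library labelled wtOCLN, 120.4 CPM in LPS and 60.3 CPM in control. ICAM1 had 1528 and 1445 CPM in siOCLN+LPS and the library labelled wtOCLN, and SOD2 had 972.5 and 922.3 CPM there, below its LPS level.

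Of the 24 tested genes that act upstream in NF-kB signalling, 7 were past 2-fold higher in LPS over control and 0 lower, beside 1.6% and 0.207% of all genes. They were the ligands TNF, IL1A and IL1B and the NF-kB family members NFKB1, NFKB2, REL and RELB. RELA, the main activating subunit, had 111.9 CPM in siOCLN+LPS, 115.0 CPM in the library labelled wtOCLN, 128.6 CPM in LPS and 111.7 CPM in control. TNF, for which TNFAIP2 is named, had 178 counts in siOCLN+LPS, 180 in the library labelled wtOCLN, 69 in LPS and 2 in control, or 10.2, 10.3, 4.98 and 0.126 CPM. Its ratio to LPS was 2.05-fold in siOCLN+LPS (1.54 to 2.74) and 2.07-fold in the library labelled wtOCLN (1.56 to 2.77), below 2-fold on the log2 scale with 1 CPM added. CD14, the LPS co-receptor, was the 1 member past 2-fold higher in siOCLN+LPS, with 20.6 CPM there and 5.99 CPM in LPS, and 3 passed with TMM scaling. At 3.32% of all tested genes, 1 of 24 is near the background. CD14 and the adaptor MYD88 were the 2 higher in the library labelled wtOCLN, where 3.32% of all tested genes were.

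Interferon-stimulated genes differed from TNFAIP2 in LPS over control and between the transfected libraries. Over LPS, most were past 2-fold higher in each transfected library, as TNFAIP2 was. Which input acts on TNFAIP2 was not tested. Of 38 tested, 0 were past 2-fold in LPS over control, with 1, DDX58, past 2-fold under TMM, median ratio and upper quartile scaling. With 1.81% of all tested genes past 2-fold there, a count of 0 is near the background. Between the transfected libraries all 42 had log2 ratios below 0 in siOCLN+LPS over the library labelled wtOCLN under every scaling. With library totals 20 of them were past 2-fold lower, beside 0.29% of all tested genes. The median log2 ratio of the 42 was -0.94, where TNFAIP2 was at 0.13. Against LPS, 28 of 42 were past 2-fold higher in siOCLN+LPS, and 38 of 42 for the library labelled wtOCLN, beside 3.32% of all tested genes in either. Of the 42, 26 and 38, in that order, had ratios at or above that of TNFAIP2. The antiviral GTPase MX1 had 144.3 CPM in siOCLN+LPS, 487.9 CPM in the library labelled wtOCLN and 16.7 CPM in LPS.

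**Figure D4:**
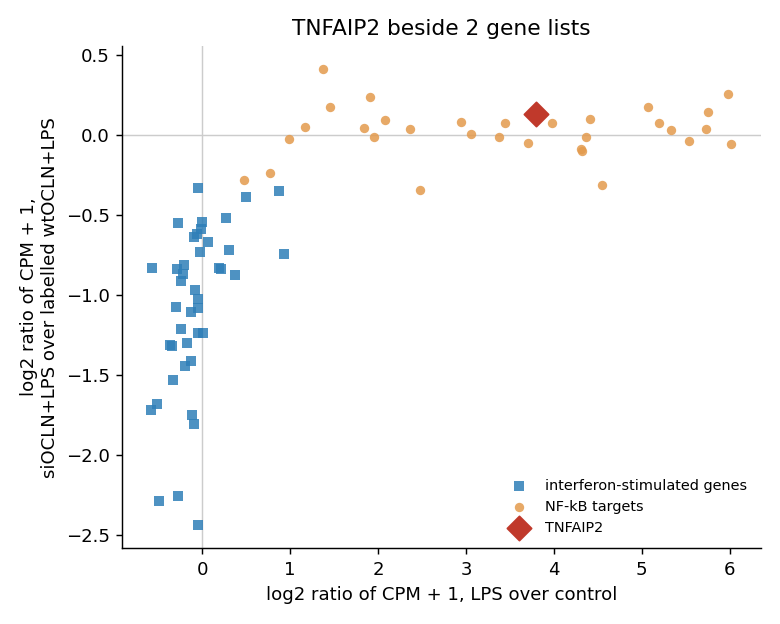
Log2 ratios of CPM + 1 for TNFAIP2 (diamond), the other NF-kB targets (circles) and interferon-stimulated genes (squares) at 1 CPM or more in any library, with LPS over control on the x axis and siOCLN+LPS over the library labelled wtOCLN on the y axis. TNFAIP2 lies at 3.79 and 0.13 among the NF-kB targets, and all 42 interferon-stimulated genes lie below 0 on the y axis. The ratios of the transfected libraries over LPS are not shown.

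Of the interferon signalling genes, IRF1, an interferon regulatory factor that NF-kB also induces, had 1036 CPM in siOCLN+LPS, 1009 CPM in the library labelled wtOCLN, 463.5 CPM in LPS and 89.1 CPM in control. Its ratios to LPS of 2.23-fold (2.17 to 2.30) and 2.18-fold (2.12 to 2.24) lay close to those of TNFAIP2. Of 16 tested members, 3 were past 2-fold higher in LPS over control (IRF1, SOCS3 and IFNGR2), beside 1.6% of all genes. In siOCLN+LPS over LPS 1 (IRF1) was higher and in the library labelled wtOCLN over LPS 4, beside 3.32% of all genes in either. Under TMM, median ratio and upper quartile scaling 3 were higher in siOCLN+LPS. Among the interferons themselves, IFNL1 had 7 counts, IFNL2 had 2 and IFNB1 had 1 in the library labelled wtOCLN, each with 0 in the other 3 libraries, and IFNL3 had 0 in all 4.

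TNFAIP2 is also known to respond to KLF5, a Kruppel-like factor, and to retinoic acid. KLF5 had 147.1 CPM in siOCLN+LPS, 150.7 CPM in the library labelled wtOCLN, 220.1 CPM in LPS and 152.7 CPM in control. The retinoic acid receptor RARA had 142.7 CPM in siOCLN+LPS, 139.1 CPM in the library labelled wtOCLN, 89.4 CPM in LPS and 123.4 CPM in control. None of the 5 tested genes of this list, which also holds RARG, RXRA and RXRB, was past 2-fold in any comparison. With at most 7.25% of all genes past 2-fold, a count of 0 among 5 says nothing particular to the list.

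The genes most like TNFAIP2 in pattern were sought among 11404 others at 5 CPM or more in any library. Each profile of log2(CPM + 1) over the 4 libraries was centred on its own mean, and the distance is the Euclidean distance between profiles. The nearest were the chemokine CXCL3 (distance 0.68), the apoptosis inhibitor BIRC3 (0.70), the chemokine CXCL2 (0.72), the nuclear IkB protein NFKBIZ (0.73) and the cytokine IL6 (0.73). PDE4B, a phosphodiesterase that breaks down cyclic AMP, IL1A, IL1B, TNFAIP3 and NFKBIA followed at 0.95 to 1.01. With 4 libraries the likeness rests mainly on the step from control to LPS. It also depends on the measure. Under Pearson correlation, which ignores the size of a change, other genes came nearest and these were not among them.

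**Figure D5:**
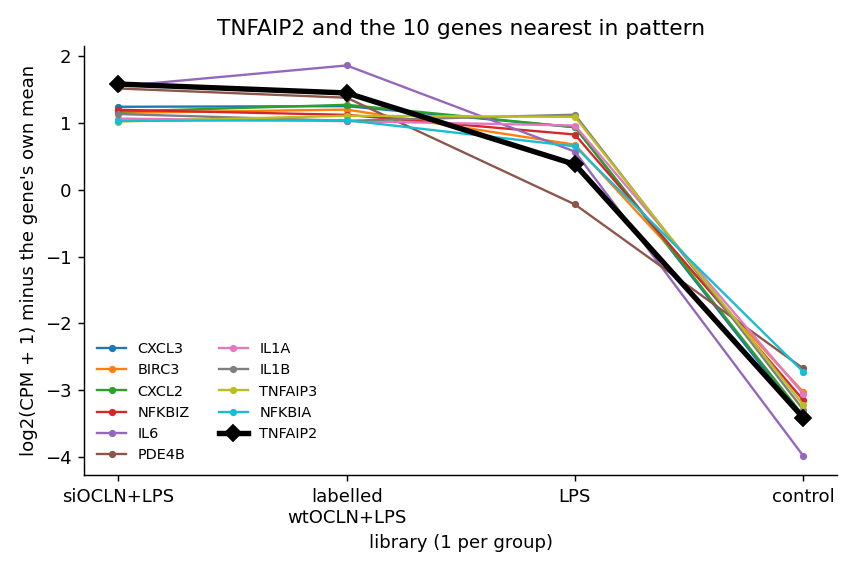
Log2(CPM + 1) of TNFAIP2 (black) and the 10 genes nearest to it, each minus its own mean over the 4 libraries. TNFAIP2 lies at 1.58 and 1.45 in the transfected libraries, 0.38 in LPS and -3.41 in control, and 9 of the 10 others, all but PDE4B, lie above it in LPS.

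Most of the 10 had lower ratios to LPS than TNFAIP2 in the transfected libraries. In siOCLN+LPS only PDE4B was above it, with a log2 ratio of 1.74 against 1.20. In the library labelled wtOCLN only PDE4B at 1.60 and IL6 at 1.29 were above it, against 1.07. BIRC3 had 1300 CPM in siOCLN+LPS, 1345 CPM in the library labelled wtOCLN, 933.9 CPM in LPS and 70.9 CPM in control, so its ratio to LPS was 1.39-fold in siOCLN+LPS and 1.44-fold in the library labelled wtOCLN. IL6 had 269.4 CPM in siOCLN+LPS, 334.7 CPM in the library labelled wtOCLN, 136.2 CPM in LPS and 4.85 CPM in control, so that it was highest in the library labelled wtOCLN. PDE4B had 40.3 CPM in siOCLN+LPS, 36.5 CPM in the library labelled wtOCLN, 11.4 CPM in LPS and 1.26 CPM in control. Its ratio to LPS in siOCLN+LPS was thus 3.54-fold (2.97 to 4.23), and it had a ratio to control in siOCLN+LPS of 32.0-fold (20.6 to 52.7). TNFAIP3, IL1A and IL1B were nearly level across the 3 LPS libraries. PDE4B and TNFAIP2, at 32.1-fold, thus had like ratios to control in siOCLN+LPS, and their log2 ratios between the transfected libraries were 0.14 and 0.13. In the promoter entries of the 10 genes, the loose kappaB pattern stood in 8 (54.4% of all entries), the GC box in 5 (42.6%), the GAS element in 2 (6.57%), the AP-1 site in 1 (6.57%) and the ISRE in 0 (3.02%). With 10 genes, nothing is read from these counts.

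Neighbouring genes offered little to compare. Of the 4 genes on each side of TNFAIP2 in RefSeq, EXOC3L4 was the 1 with a row in the count files. The long non-coding RNA LINC00677 overlaps TNFAIP2 in the RefSeq gene spans and has no row of its own. As the strand setting of the counting is not given in the sources used here, reads from LINC00677 and TNFAIP2 cannot be told apart where they overlap.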

How the data were processed

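Per the labels' protocols, a directional kit was used on total RNA. Each library has 1 deposited file of whole-number counts per gene symbol. The submitters' processing notes name TopHat, Cufflinks and hg19 but give no version or role. How reads were counted, on which strand and against which annotation, and how shared reads were treated, is not given in the sources used here.

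Counts were scaled to CPM by library totals (13867494 to 17500031), and log2 ratios used CPM + 1, which understates the change of low genes. Single CPM values have exact Poisson intervals, and folds divide CPM with no pseudocount added and have Clopper-Pearson intervals. The labels name no molecular identifiers, so both cover counting error only. With 1 library per group no model of the spread could be fitted, and no p-value was computed. TNFAIP2 and the gene lists were chosen with earlier results of these data known, as was the rule for named genes. That rule takes OCLN, all members of the Sec6, exocyst and TNF-induced lists, up to 4 members with the largest ratios from other lists, the 10 genes nearest in pattern, genes of similar level with the highest ratios or next to TNFAIP2, and chromosomal neighbours. Genes named besides these were chosen after their values were seen: GAPDH, PKM, EEF2, VIM and MYH9 as examples of similar level, RALA, RELA, ICAM1, SOD2 and the other list members given as background. Transcript lengths (longest GENCODE 29 transcript) were found for 21849 symbols. Promoter sequences and gene order came from RefSeq tables for GRCh38.p14, another build than hg19, matched by symbol. The steps were tested on simulated counts with Poisson counting error only, so the spread between cultures was not covered. Scaling (TMM, median ratio, upper quartile), pseudocount, filter, threshold and window were varied. Tools were Python 3.11.15, NumPy 2.4.6, SciPy 1.17.1, pandas 2.3.3, matplotlib 3.10.9, R 4.3.3 and edgeR 4.0.16 (TMM factors only). A gene of the interferon signalling list is not reported here.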

Additional observations from a re-analysis of the deposited data

How the results depend on the processing

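No paired analysis was possible because each group has 1 library, and no replicate could be left out. The direction of the TNFAIP2 ratio was the same in all 36 alternatives over the 6 pairs of libraries. A change of pseudocount cannot reverse a direction, so those alternatives had a fixed outcome in this respect. With TMM, median ratio and upper quartile scaling its log2 ratio was 3.88, 3.89 and 3.88 for LPS over control, 1.35, 1.35 and 1.32 for siOCLN+LPS over LPS, and 1.24, 1.23 and 1.18 for the library labelled wtOCLN over LPS. Over control it was 5.23, 5.23 and 5.20 in siOCLN+LPS and 5.12, 5.12 and 5.06 in the library labelled wtOCLN, and between the transfected libraries 0.11 with both TMM and median ratio scaling. These scalings move the median of all genes, which is -0.13 for siOCLN+LPS over LPS with library totals and 0.01 with TMM.

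With a window of 1.5-fold, 0% of 16 other genes reached the ratio of TNFAIP2 in LPS over control or in either transfected library over LPS. With a window of 4-fold, the share of 211 other genes was 1.42% for LPS over control (4.17% at 2-fold), 2.84% for siOCLN+LPS over LPS (2.08%) and 5.69% for the library labelled wtOCLN over LPS (4.17%). With the level taken in control the share was 0.0259% for LPS over control. For siOCLN+LPS over LPS it was 0% with the level taken in LPS or over both libraries.

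The number of genes past 2-fold was 245 for LPS over control, 979 for siOCLN+LPS over LPS, 946 for the library labelled wtOCLN over LPS and 48 between the transfected libraries. In that order it was 502, 1539, 1527 and 161 with a pseudocount of 0.1, 136, 415, 427 and 22 with a pseudocount of 5, 846, 3288, 3195 and 255 at 1.5-fold, and 94, 228, 236 and 10 at 3-fold. The share of these genes that were higher was 45.9% for siOCLN+LPS, and 47.4% for the library labelled wtOCLN over LPS with library totals, against 61.5% and 64.9% with TMM, 60.8% and 64.7% with median ratio, and 57.9% and 58.5% with upper quartile scaling. Of the 10 genes nearest in pattern, 10 were shared under every scaling, 8 and 7 with pseudocounts of 0.1 and 5, and 0 when likeness was Pearson correlation, which ignores the size of a change and put GFPT2, EPAS1 and SEMA4B first.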
